A study of Mus musculus with 11 samples.

Results

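Trpc6 and 6 other genes of mechanosensitive cation channels (Trpc1, Trpv4, Trpv2, Trpm7, Piezo1 and Piezo2) were followed through bulk RNA sequencing of mandibular condylar fibrocartilage, the tissue that covers the condyle of the jaw joint in mice. The 7 genes were taken by name from a count table of 23420 gene symbols, and all 7 were among the 14531 genes that passed a filter on low counts. The set was chosen by the measured levels of Trpc6, taken here to be its response to estradiol in wild-type (WT) tissue. Its values in that contrast and in the difference between genotypes of the estradiol effect are therefore given as a description, without a test. The same holds for its comparisons of genotypes under each agent.

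All mice were C57BL/6 females, ovariectomized at 6 weeks of age and sampled at 7 weeks, after 1 week with placebo or estradiol in a slow-release form. The 4 groups were KO E2 (ERalphaKO mice with 17β-estradiol, n = 3), KO Plb (ERalphaKO mice with placebo, n = 3), WT E2 (WT mice with 17β-estradiol, n = 3) and WT Plb (WT mice with placebo, n = 2). The dose of estradiol was 0.01 mg, made to be released over 60 days. ERalphaKO mice lack estrogen receptor alpha, the product of Esr1, and how the allele was made is not given in the sources used here. No group kept its ovaries. Whether each replicate came from its own animal is not stated in the labels, so a p-value here reflects the variation among these libraries, some of which may be technical.

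Mechanosensitive cation channels open when the membrane is stretched, when the cell swells or when an attached structure is pulled, and let calcium and other cations into the cell. In cartilage, where cells live under compression and shear, Trpv4 is known to respond to osmotic change and moderate strain and the Piezo channels to high strain. Trpc6 and Trpc1 belong to the canonical transient receptor potential (TRP) family, which also opens downstream of receptors that activate phospholipase C. Whether Trpc6 is itself opened by stretch or acts downstream of other sensors is debated.

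Total counts ran from 15.7 to 25.5 M per library. Esr1 was below every WT library in every KO library, at 2.55 to 3.75 counts per M counts (CPM, scaled by TMM) in KO E2 and 2.68 to 4.86 CPM in KO Plb, against 6.43 to 7.89 CPM in WT E2 and 6.60 to 13.4 CPM in WT Plb. These counts cover the whole gene and do not show how much receptor remained. All 8 cartilage markers were detected in every library, with Col2a1 at 3706 CPM or more and Acan at 855 CPM or more, and Col1a1, the collagen of fibrous tissue, reached at least 45424 CPM. The ribosomal precursor Rn45s took 16.0% of counts in WT Plb 2, against 1.83% to 3.13% in the other libraries. WT Plb 2 also held 1176 CPM of summed skeletal muscle markers, against 31.1 CPM in WT Plb 1. Values without WT Plb 2 are given beside those it moves most.

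Trpc6, a calcium-permeable channel, stood far above its other levels in WT E2. It measured 1.62, 2.26 and 3.17 CPM in KO E2 and 2.75, 2.67 and 2.97 CPM in KO Plb. In WT E2 it measured 62.5, 65.2 and 60.6 CPM, against 3.66 and 4.29 CPM in WT Plb. The 3 WT E2 libraries thus lay above all 8 others, and the KO libraries all lay below both WT Plb libraries. Behind these levels stood 29 to 71 counts per library in KO E2, 57 to 70 in KO Plb, 1418 to 1583 in WT E2 and 63 to 68 in WT Plb, so none was near the floor of 3 counts (0.118 to 0.204 CPM).

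Estradiol against placebo in WT gave a log2 difference of 3.98 for Trpc6 (SE 0.21), a 15.8-fold higher level with estradiol. Of the 14531 genes tested, 15 had a higher log2 difference. Across the alternatives of scaling, filter, model and left-out library this value ran from 3.86 to 4.10, and it was 4.10 without WT Plb 2. The authors' deposited table gives 3.91 (SE 0.178) for the same contrast. KO against WT under estradiol gave a log2 difference of -4.72 (SE 0.18), 26.3-fold lower in KO E2 than in WT E2. These values are taken to have chosen the gene and are not evidence of anything beyond it.

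Estradiol against placebo in KO shares no library with the WT contrast taken to have chosen Trpc6, and there Trpc6 was tested. If its levels in KO were also part of the choice, that test is not independent of it. The log2 difference was -0.23 (SE 0.19, 95% interval -0.65 to 0.18, adjusted p = 0.618, from edgeR's quasi-likelihood F test, adjusted after Benjamini and Hochberg over 14531 genes). The KO E2 and KO Plb libraries overlapped, because KO E2 3 lay above every KO Plb library. Without KO E2 1 the difference was -0.03 and without KO E2 3 it was -0.53. With the replicate number as a block it was -0.25 (adjusted p = 0.558). The WT effect minus the KO effect was 4.22 on the log2 scale (SE 0.27), and 4.01 to 4.52 over the alternatives.

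KO against WT under placebo uses the same WT Plb libraries as the contrast taken to have chosen Trpc6, so its value there is also a description. The log2 difference was -0.50 (SE 0.21). It was -0.62 without WT Plb 1 and -0.38 without WT Plb 2.

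**Figure D1:**
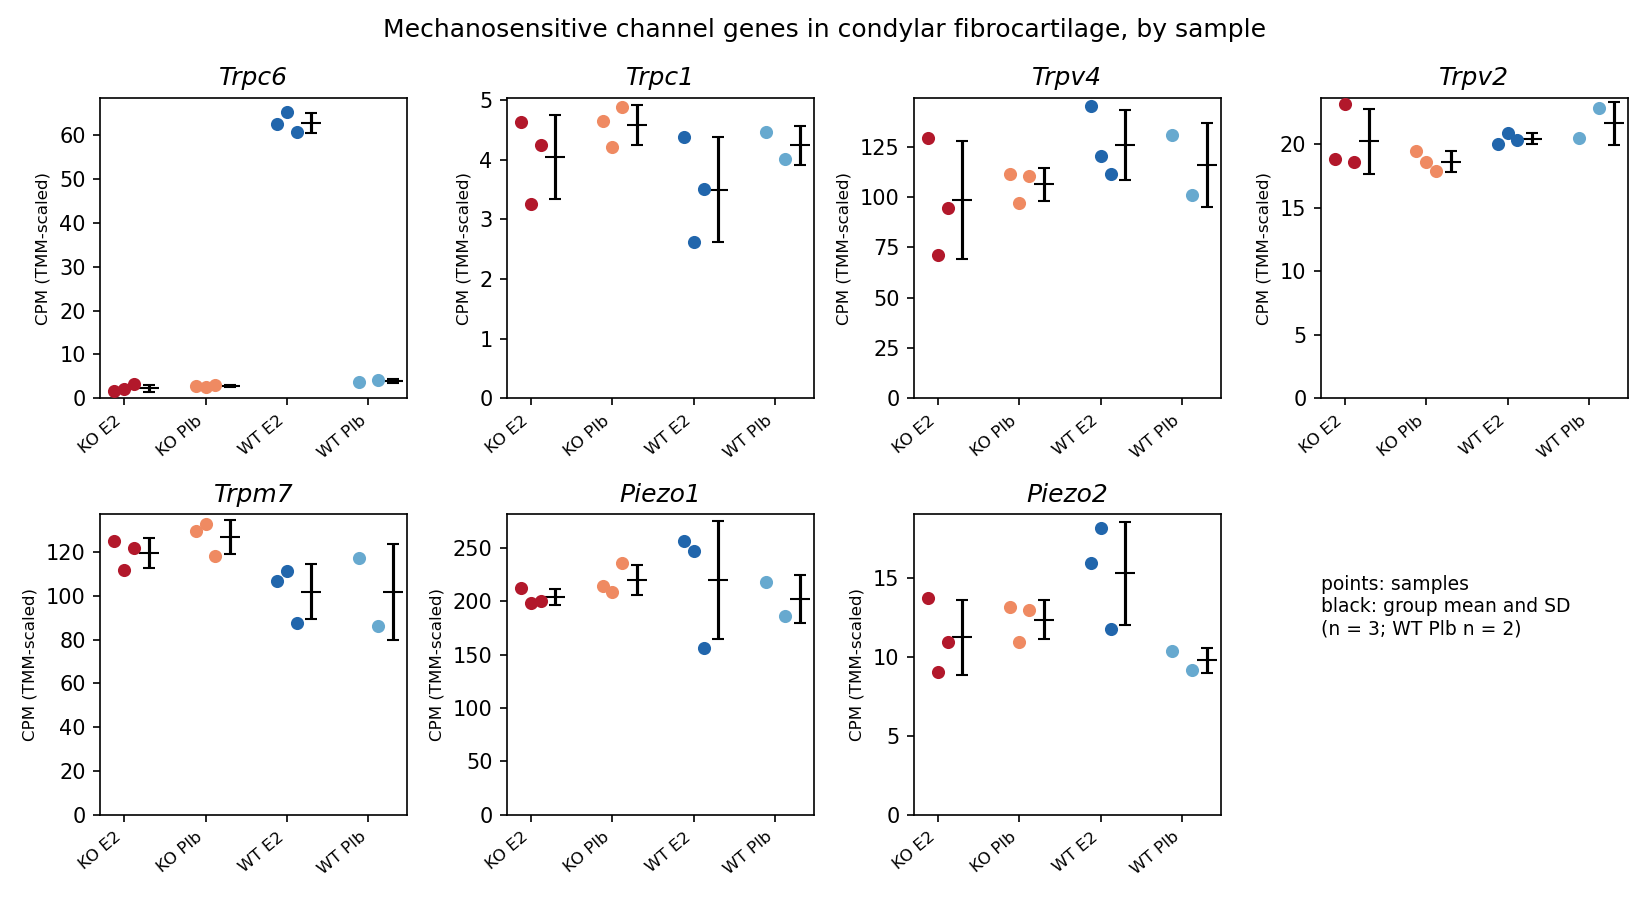
Level of the 7 channel genes in each library, in TMM-scaled CPM on linear axes from 0, with the group mean and SD in black (n = 3, WT Plb n = 2). Trpc6 is at 60.6 to 65.2 CPM in WT E2 and at 1.62 to 4.29 CPM elsewhere, while for the other 6 genes the highest library is at most 2.04 times the lowest.

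Trpc6 is expressed in smooth muscle in other tissues, and all cells of the dissected tissue were sequenced together. The 10 smooth muscle and pericyte markers summed to 619 to 754 CPM in KO E2, 775 to 859 CPM in KO Plb, 645 to 911 CPM in WT E2 and 916 to 957 CPM in WT Plb. Their sum was no higher in WT E2 than in WT Plb, but it includes Des, which skeletal muscle also expresses. Des ranged from 0.894 to 181 CPM over the libraries, and WT Plb 2 held 1176 CPM of skeletal muscle markers. The sum without Des was not compared. Of the 9 markers tested, edgeR called 0 in WT with estradiol (5 at an unadjusted p under 0.05) and DESeq2 called 1 higher and 2 lower. Cnn1, the tenth, had 0 to 7 counts per library. For estradiol in WT, edgeR called 1.55% of all genes, 14% had an unadjusted p under 0.05 and DESeq2 called 656 genes. Several other marker sums did not overlap between the WT groups, some higher and some lower in WT E2. Of all single genes, 13.2% were higher without overlap, and the share that was lower is not given here. Osteoclast markers summed to 12406 to 12879 CPM in WT E2 against 8900 to 10631 CPM in WT Plb (2 of 8 called higher, 5 unadjusted, 5 higher in DESeq2). B lineage markers summed to 18.9 to 22.3 CPM in WT E2 against 54.8 to 59.5 CPM in WT Plb (4 of 10 called lower, 8 unadjusted, 8 lower in DESeq2). Endothelial markers summed to 517 to 566 CPM in WT E2 against 406 to 495 CPM in WT Plb (1 of 10 called higher, 5 unadjusted, 1 higher in DESeq2). Macrophage markers summed to 1191 to 1489 CPM against 1060 to 1112 CPM (0 of 10 called in edgeR, 7 unadjusted, 3 higher in DESeq2). Neutrophil markers summed to 7.62 to 38.1 CPM in WT E2 against 200 to 458 CPM in WT Plb (0 of 10 called in edgeR, 5 unadjusted, 4 lower in DESeq2). Adipocyte markers summed to 4.29 to 8.53 CPM in WT E2 against 16.2 to 24.8 CPM in WT Plb (1 of 5 called lower, 3 unadjusted, 2 lower in DESeq2). Erythroid markers summed to 22.5 to 23.0 CPM against 5.22 to 14.1 CPM (0 of 5 called, 0 unadjusted, 0 in DESeq2). The hemoglobin genes of the erythroid list (Hbb-b1, Hbb-b2, Hba-a1 and Hba-a2) had 0 counts in every library. Hypertrophic cartilage markers summed to 10294 to 11753 CPM in WT E2 against 8156 to 10159 CPM in WT Plb (1 of 4 called higher, 1 unadjusted, 1 higher in DESeq2). Schwann cell and neuron markers summed to 36.6 to 40.9 CPM against 47.2 to 48.9 CPM (0 of 7 called, 1 unadjusted, 0 in DESeq2). The part of these cells in the Trpc6 level was not tested, and in bulk tissue fewer cells of a type and less RNA per cell cannot be told apart.

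The promoter window of Trpc6 is shown because this gene carried the estradiol difference, beside those of its close relative Trpc1 and of Piezo1, whose 95% interval in WT ended at 0.50. Windows run from 250 bases before to 50 bases after the annotated start, 5′ to 3′ on the gene's strand, from RefSeq on GRCm38.p6 (the reads were aligned to mm9, an older build). They lie at chr9:8543892-8544191 on the plus strand for Trpc6, chr9:95750299-95750598 on the minus strand for Trpc1 and chr8:122551280-122551579 on the minus strand for Piezo1. Capitals mark GGTCA and the GC box GGGCGG, on either strand.
Trpc6: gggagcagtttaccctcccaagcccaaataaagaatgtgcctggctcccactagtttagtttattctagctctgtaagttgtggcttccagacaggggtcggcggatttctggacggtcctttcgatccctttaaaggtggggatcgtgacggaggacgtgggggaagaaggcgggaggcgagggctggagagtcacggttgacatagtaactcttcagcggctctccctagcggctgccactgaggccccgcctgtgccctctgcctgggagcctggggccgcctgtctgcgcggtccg
Trpc1: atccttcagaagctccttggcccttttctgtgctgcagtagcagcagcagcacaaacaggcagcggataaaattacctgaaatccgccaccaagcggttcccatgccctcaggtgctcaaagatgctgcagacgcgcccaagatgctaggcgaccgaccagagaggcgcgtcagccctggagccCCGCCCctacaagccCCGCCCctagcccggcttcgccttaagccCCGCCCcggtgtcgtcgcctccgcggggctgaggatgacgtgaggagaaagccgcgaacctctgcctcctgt
Piezo1: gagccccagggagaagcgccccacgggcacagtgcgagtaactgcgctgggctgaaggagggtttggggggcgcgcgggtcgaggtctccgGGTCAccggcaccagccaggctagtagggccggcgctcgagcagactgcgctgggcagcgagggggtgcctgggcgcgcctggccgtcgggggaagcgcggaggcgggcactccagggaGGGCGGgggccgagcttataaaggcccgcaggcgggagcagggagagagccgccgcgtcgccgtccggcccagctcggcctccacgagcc
The Trpc6 window holds neither motif. Trpc1 has 3 GC boxes, and Piezo1 has 1 GGTCA, 1 GC box and 1 TATA box (TATAAA, left in lower case).

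Both strands of the windows were searched for 5 motifs, and 6 of the 7 members had a window. The estrogen response element, here GGTCA and its reverse complement TGACC with NNN (any bases) between them, contains GGTCA on each strand. It lies in 0.07% of 32851 such windows of the mouse genome and in none of the 6 members. GGTCA alone lies in 40.5% of windows, and among the members in Trpm7, Piezo1 and 1 of 3 windows of Trpv2. GGGCGG lies in 35.7% of windows and in those of Trpc1, Trpv4 and Piezo1. TATAAA lies in 13.6% of windows and in those of Piezo1 and 1 of 3 of Trpv2, and the AP-1 motif TGANTCA in 7.81% and in no member. A match says only that these letters stand in the window, and a missing match says nothing of sites elsewhere.

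The other TRPC member, Trpc1, which can form channels with other TRPC proteins, was a low gene in every group. It measured 4.63, 3.26 and 4.25 CPM in KO E2 and 4.65, 4.22 and 4.88 CPM in KO Plb. WT E2 libraries gave 4.38, 2.62 and 3.50 CPM, against 4.47 and 4.01 CPM in WT Plb. The groups overlapped in every comparison. Estradiol against placebo in WT gave a log2 difference of -0.27 (adjusted p = 0.693) and in KO of -0.18 (adjusted p = 0.752). KO against WT gave 0.21 under estradiol (adjusted p = 0.579) and 0.11 under placebo (adjusted p = 0.888). The 95% interval in WT was -0.80 to 0.25.

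Trpv4, an osmotically and mechanically gated calcium channel of chondrocytes, was abundant. It measured 129, 71.2 and 94.7 CPM in KO E2 and 111, 96.8 and 110 CPM in KO Plb. The WT E2 values were 145, 120 and 112 CPM, against 131 and 101 CPM in WT Plb. KO E2 had the widest range, and the groups overlapped in each comparison made. Estradiol gave log2 differences of 0.12 in WT (adjusted p = 0.878), which was -0.057 without WT Plb 2, and -0.11 in KO (adjusted p = 0.841). KO against WT under estradiol was -0.35 (SE 0.19, adjusted p = 0.271). Without KO E2 1 that value became -0.60 and passed (adjusted p = 0.0372). Under placebo KO against WT was -0.13 (adjusted p = 0.856), and -0.30 without WT Plb 2. Both the level of Trpv4 and the summed cartilage markers were highest in WT E2 1 (23962 CPM of markers) and lowest in KO E2 2 (8440 CPM), and the part of this in the genotype difference was not tested.

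Trpv2, a relative of Trpv4 that also responds to stretch, was the steadiest of the 7. Its lowest and highest libraries differed 1.30-fold, between 17.9 CPM in KO Plb 3 and 23.2 CPM in KO E2 2. It measured 18.9, 23.2 and 18.6 CPM in KO E2 and 19.5, 18.6 and 17.9 CPM in KO Plb. In WT E2 it measured 20.0, 20.9 and 20.4 CPM, against 20.5 and 22.9 CPM in WT Plb. All 3 KO Plb libraries lay below both WT Plb libraries, with a log2 difference of -0.22 that did not pass (adjusted p = 0.572). Under estradiol it was -0.02 (adjusted p = 0.943). Estradiol gave -0.08 in WT (adjusted p = 0.830) and 0.12 in KO (adjusted p = 0.657).

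Trpm7, a magnesium- and calcium-permeable channel fused to a kinase domain, was higher in KO libraries than in WT libraries within each agent. It measured 125, 112 and 122 CPM in KO E2 against 107, 111 and 87.7 CPM in WT E2, and 130, 133 and 118 CPM in KO Plb against 117 and 86.3 CPM in WT Plb. The groups did not overlap under either agent. KO exceeded WT by 0.23 on the log2 scale under estradiol (adjusted p = 0.231) and by 0.32 under placebo (SE 0.13, unadjusted p = 0.0346, adjusted p = 0.538), and neither passed. The placebo value depended on which WT library was kept, at 0.55 without WT Plb 1 and 0.12 without WT Plb 2. In the authors' deposited tables KO Plb over WT E2, which differ in both genotype and agent, is 0.32 with an adjusted p of 0.0366. Their comparisons of KO with WT did not pass under placebo (adjusted p = 0.649) or under estradiol (adjusted p = 0.187). Estradiol gave 0.0010 in WT (adjusted p = 0.999), which was -0.20 without WT Plb 2, and -0.08 in KO (adjusted p = 0.796).

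Piezo1, a large channel that opens directly under membrane tension, had the most CPM of the 7, which is not corrected for its length. It measured 212, 199 and 200 CPM in KO E2 and 215, 209 and 236 CPM in KO Plb. With estradiol in WT it measured 257, 247 and 156 CPM, against 218 and 186 CPM in WT Plb. WT E2 3 was the lowest library of all and WT E2 1 the highest, so the WT E2 group spanned all others. Estradiol gave 0.12 in WT (adjusted p = 0.828), which was 0.32 without WT E2 3 and 0.013 without WT Plb 2, and -0.11 in KO (adjusted p = 0.796). KO against WT gave -0.11 under estradiol (adjusted p = 0.689) and 0.12 under placebo (adjusted p = 0.828), the second of these 0.013 without WT Plb 2. Its exons overlap those of Ctu2 on the opposite strand over 990 bases (12% of its exonic length), and reads from the 2 genes cannot be told apart there, because the use of strand in counting is not given in the sources used here.

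Piezo2, the touch and proprioception channel of sensory neurons, was the member with the second largest difference after Trpc6 in WT, but it did not pass. It measured 13.7, 9.02 and 10.9 CPM in KO E2 and 13.1, 10.9 and 13.0 CPM in KO Plb. In WT E2 it measured 15.9, 18.2 and 11.7 CPM, against 10.3 and 9.19 CPM in WT Plb. The 3 WT E2 libraries lay above both WT Plb libraries, and WT E2 3 lay within the range of KO Plb. Estradiol against placebo in WT gave a log2 difference of 0.64 (SE 0.21, 95% interval 0.19 to 1.09, unadjusted p = 0.00909, adjusted p = 0.160). Over the alternatives it ran from 0.50 to 0.80, with adjusted p from 0.0782 to 0.375. In KO the difference was -0.14 (adjusted p = 0.779), and the WT effect minus the KO effect was 0.78 (SE 0.28, adjusted p = 0.243). KO against WT was -0.44 under estradiol (adjusted p = 0.140) and 0.34 under placebo (adjusted p = 0.607). The summed Schwann cell and neuron markers were 36.6 to 40.9 CPM in WT E2 against 47.2 to 48.9 CPM in WT Plb. Of these, Snap25 had 0 counts and Scn9a 0 to 2 counts per library, so the sum says little of neurons. The part of such cells in the Piezo2 level was not tested.

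**Figure D2:**
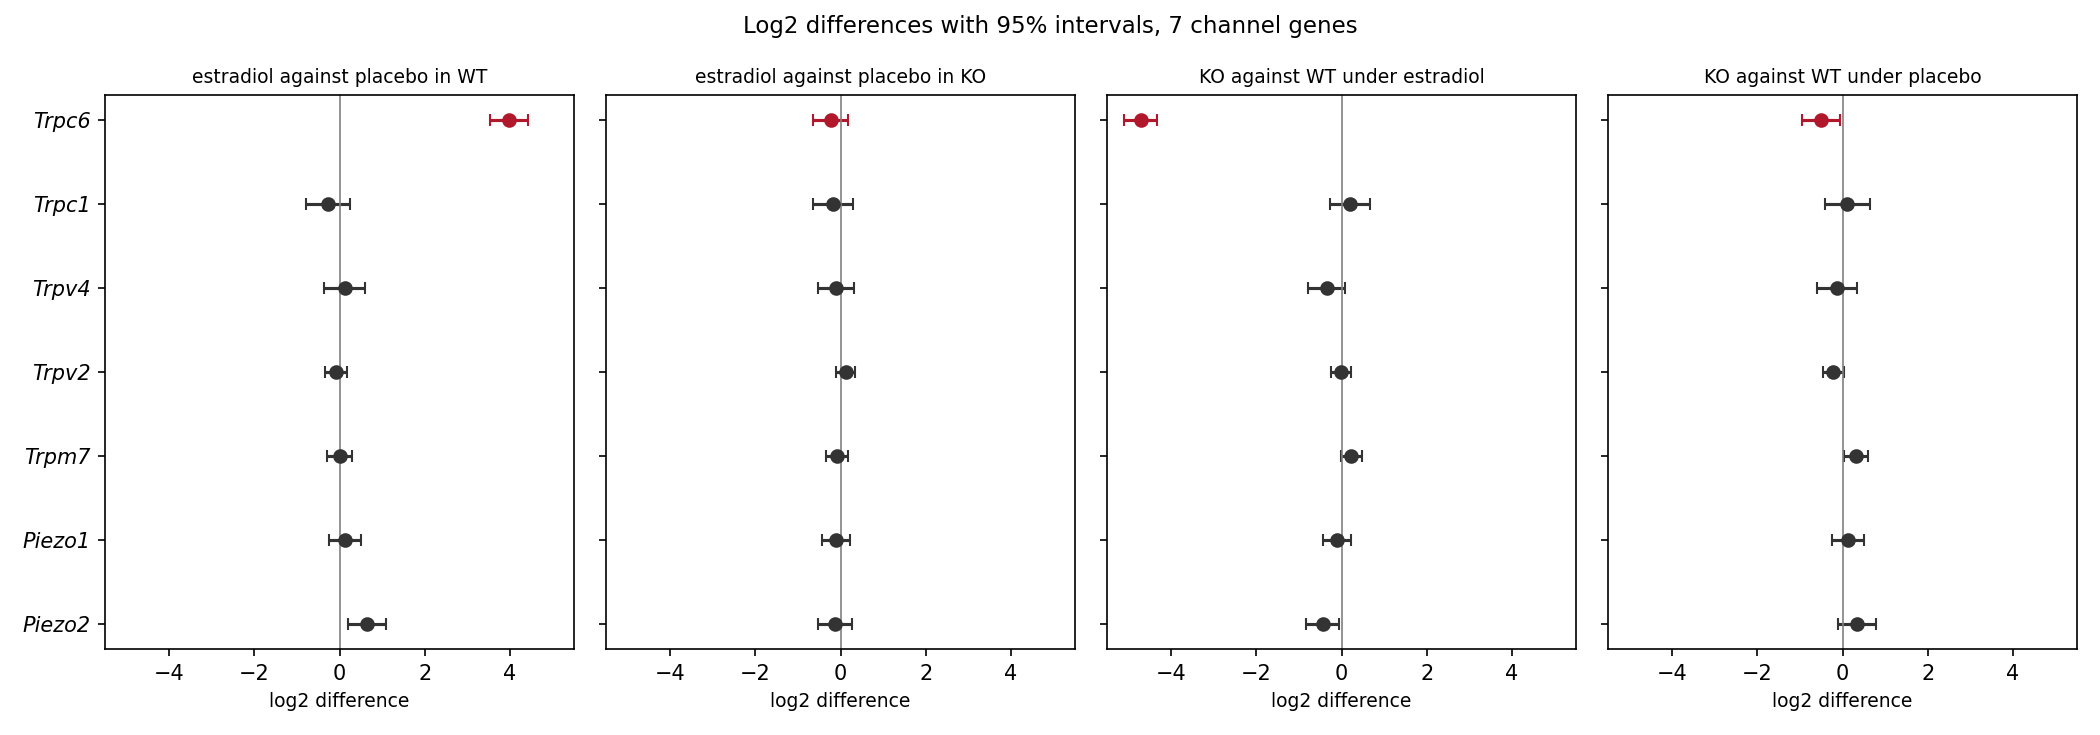
Log2 differences of the 7 channel genes in 4 comparisons, with 95% intervals from edgeR (7 residual degrees of freedom, plus the shared prior), Trpc6 in red. Trpc6 lies at 3.98 for estradiol in WT and at -4.72 for KO against WT under estradiol, and the other 6 genes lie between -0.44 and 0.64 in all 4 panels.

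Counted together, edgeR called 0 of the 6 other members for estradiol in WT (1 at an unadjusted p under 0.05, and 0 in DESeq2), where 1.55% of all genes were called and 14% had an unadjusted p under 0.05. For estradiol in KO it called 0 of 7 (0 unadjusted, 0 in DESeq2), where the shares of all genes were 2.73% (396 genes, 629 with the replicate block) and 16.5%. For the difference between the estradiol effects it called 0 of 6 (1 unadjusted, 0 in DESeq2), against 1.15% and 11.6% of all genes, and these differences ran from -0.20 for Trpv2 to 0.78 for Piezo2. For KO against WT under placebo it called 0 of 6 (1 unadjusted, 0 in DESeq2), where 0.00688% of all genes were called and 9.21% had an unadjusted p under 0.05. Under estradiol it called 0 of 6 (1 unadjusted, 0 in DESeq2), against 11.5% and 26.9% of all genes. At these shares fewer than 1 call would be found in any 6 or 7 genes on average. Groups did not overlap for 1 of 6 members higher with estradiol in WT (Piezo2), where 13.2% of all genes were higher without overlap. Under placebo 2 of 6 were higher in KO without overlap (Trpm7 and Piezo2) and 1 lower (Trpv2), against 13.2% and 13.8% of all genes. Under estradiol 1 of 6 was higher in KO without overlap (Trpm7), against 17.7% of all genes. The median log2 difference of the 6 other members for estradiol in WT was 0.059, beside 0.0023 over all genes.

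To compare levels between genes, CPM was divided by exonic length in kb (union of basic GENCODE M21 exons on GRCm38, which may differ from the authors' annotation). Per kb the order over all 11 libraries was Trpv4 (34.4), Piezo1 (25.8), Trpm7 (16.0), Trpv2 (6.53), Trpc6 (3.80), Piezo2 (1.14) and Trpc1 (0.895). The ranges of Trpv4 and Piezo1 overlapped in KO E2, and in each other group all of Trpv4 lay above all of Piezo1. Those of Piezo2 and Trpc1 overlapped in KO E2, KO Plb and WT Plb, and in WT E2 all of Piezo2 lay above all of Trpc1. Trpc6 changed its place in this order. In WT E2 it had 12.4 CPM per kb, close to Trpm7 at 14.3, and its highest library (12.9) lay above the lowest of Trpm7 (12.3). In KO E2 (0.464) and KO Plb (0.552) it was the lowest of the 7. In WT Plb (0.784) its mean was the lowest too, but its highest library (0.8462) lay just above the lowest of Piezo2 (0.8456).

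The genes whose profile was most like that of Trpc6 were found by Pearson's r of log2 CPM over the 11 libraries. The first 10 were Pi15, Col8a1, Wnt4, Whrn, Lgi2, Rcor2, Greb1, Lifr, Bst2 and Micall2, with r from 0.985 to 0.969. All 11 points share their libraries and their groups, and all 10 genes were high in the same 3 WT E2 libraries. For estradiol in WT their log2 differences ran from 0.63 for Rcor2 to 6.28 for Greb1, a classical target of estrogen receptor alpha. Pi15, a secreted protease inhibitor, was nearest in size to Trpc6, at a log2 difference of 3.69 in WT and 0.15 in KO. Wnt4, a secreted growth signal, stood at 1.17 in WT and -0.23 in KO, and Col8a1, a short-chain collagen, at 1.38 and -0.13. Once each group's mean was taken away, r ran from -0.55 for Greb1 to 0.74 for Pi15, so the likeness lies mostly in the group difference. Ranking by Spearman's rho shared 1 of these 10 genes, and leaving out each library in turn shared 6 to 9.

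**Figure D3:**
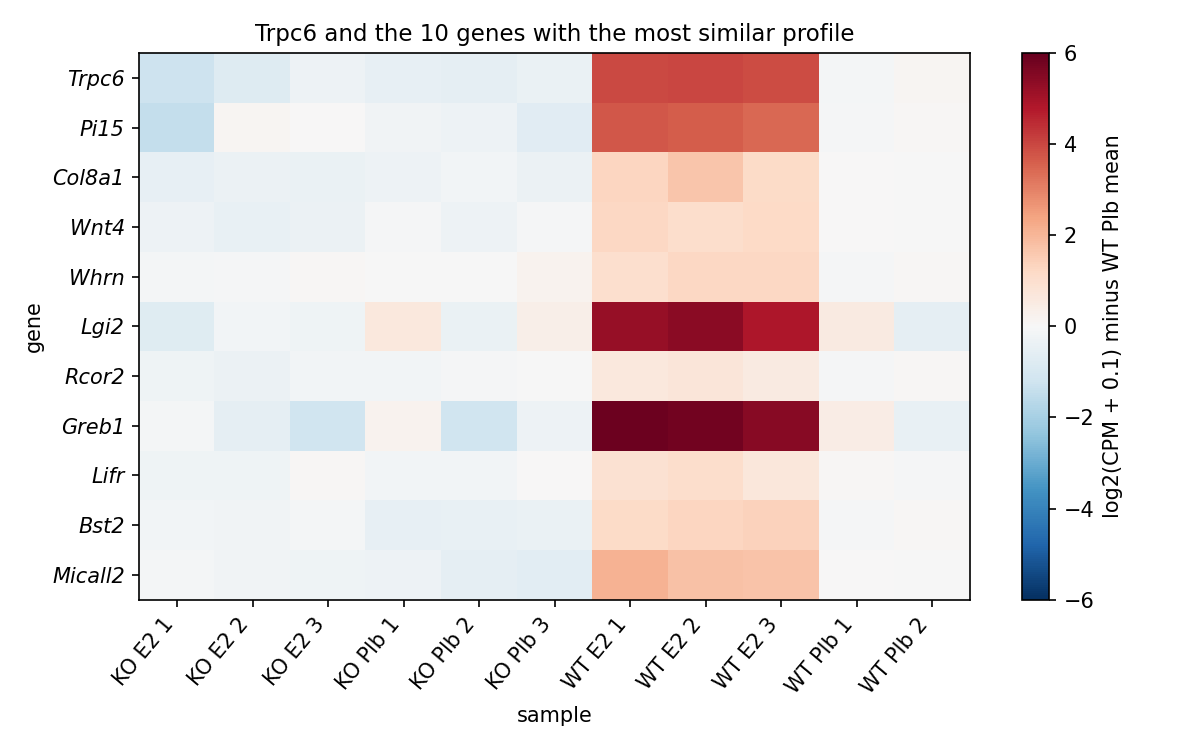
Trpc6 and the 10 genes with the highest Pearson r to it, 1 column per library, coloured by log2(CPM + 0.1) minus the mean of WT Plb. All 11 genes are high in the 3 WT E2 libraries, from 0.63 (Rcor2) to 6.28 (Greb1) as fitted log2 differences. In the KO libraries none of the 11 genes reaches its WT E2 level, and Trpc6 and Pi15 are lowest in KO E2 1 (1.62 and 0.670 CPM).

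The other members had other nearest genes. Trpv4 was most like Comp (r = 0.971), a cartilage matrix protein, followed by Ckap4 and Lepre1. Trpm7 was most like Nav3 (r = 0.980), Shprh and Son, and Piezo1 most like Fmn1 (r = 0.958), Sdk1 and Zmiz1. Piezo2 was nearest to Cyyr1 (r = 0.930), Insig1 and Kank1, Trpc1 to Prr5 (r = 0.948), Herpud2 and Stau1, and Trpv2 to Nsmce1 (r = 0.898), Cfl1 and S100a11. None of these 18 genes is among the 10 nearest to Trpc6. Among the members themselves, with group means taken away, Piezo2 followed Trpv4 (r = 0.78) and Piezo1 (r = 0.75), and Trpv2 ran against Trpv4 (r = -0.75), over 11 libraries that share depth and tissue composition.

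Of 26 other mechanically or osmotically gated channels, 16 were tested, and 1 rose and 1 fell with estradiol in WT (4 unadjusted), where 1.55% of all genes were called and 14% had an unadjusted p under 0.05, with a median log2 difference of 0.0088 beside 0.0023 over all genes. Kcnk2, which encodes the stretch-activated potassium channel TREK-1, measured 52.1, 45.4 and 48.8 CPM in WT E2, against 23.9 and 20.2 CPM in WT Plb. In KO it measured 25.3, 21.2 and 24.9 CPM with estradiol, against 33.2, 28.6 and 24.4 CPM with placebo. The WT E2 libraries lay above all others. Kcnk2 rose with estradiol in WT (log2 1.14, SE 0.14, adjusted p = 0.00130), was lower in KO E2 than in WT E2 (log2 -1.03, adjusted p = 0.000303), and its WT effect exceeded its KO effect by 1.41 (adjusted p = 0.00269). These calls held in every alternative. An antisense transcript, A430027H14Rik, overlaps 604 bases (14.4%) of its exons, and reads of the pair cannot be told apart there.

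Asic3, an acid-sensing sodium channel of sensory neurons, went the other way. It measured 2.29, 3.59 and 3.05 CPM in WT E2, against 9.64 and 8.91 CPM in WT Plb. In KO it measured 8.49, 7.36 and 10.8 CPM with estradiol, against 9.43, 10.7 and 8.58 CPM with placebo. The 3 WT E2 libraries lay below the 8 others. The Schwann cell and neuron markers were also lower in WT E2 (36.6 to 40.9 CPM) than in WT Plb (47.2 to 48.9 CPM), with Snap25 at 0 counts in every library, and their part in the Asic3 level was not tested. Asic3 fell with estradiol in WT (log2 -1.64, SE 0.21, adjusted p = 0.00187) and was higher in KO E2 than in WT E2 (log2 1.58, adjusted p = 0.000388). Its WT effect minus its KO effect was -1.54 (adjusted p = 0.0210), with an adjusted p of up to 0.0634 when a library was left out, in 5 of 15 alternatives above 0.05. In this list KO against WT under estradiol, where 11.5% of all genes were called, also called Scnn1a, a subunit of the epithelial sodium channel, higher (log2 1.12, adjusted p = 0.0372). It called Lrrc8e, a subunit of the volume-regulated anion channel, lower (log2 -1.21, adjusted p = 0.0319). Scnn1a kept its call in 6 and Lrrc8e in 5 of 10 alternatives.

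**Figure D4:**
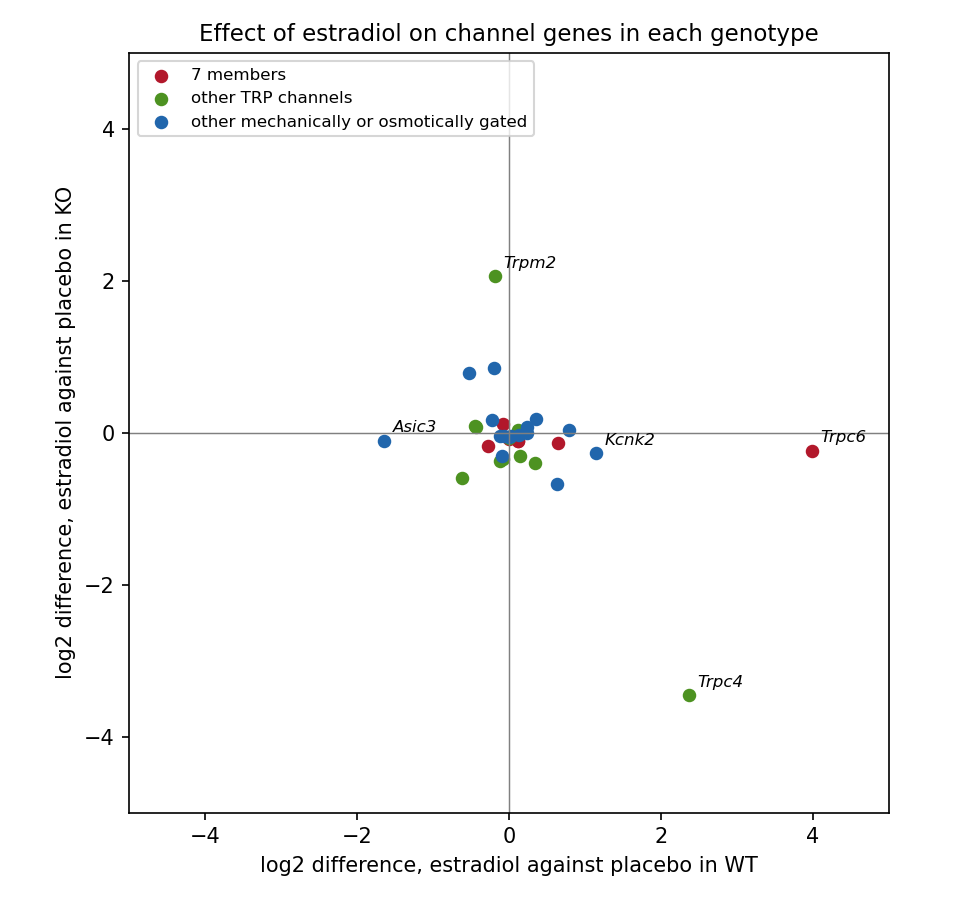
Log2 differences with estradiol in WT (horizontal) and in KO (vertical) for the 7 members, 11 other TRP channels and 16 other mechanically or osmotically gated channels, with names where either value exceeds 1 in size. Trpc6 lies at 3.98 and -0.23 and Kcnk2 at 1.14 and -0.27, while Trpc4 and Trpm2 stand off the axes without having passed the test in either genotype in edgeR.

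Of 23 other TRP channels 11 were tested, and edgeR called 0 with estradiol in either genotype (1 unadjusted in WT and 4 in KO, where 14% and 16.5% of all genes were). DESeq2 called 0 in WT and, in KO, 1 higher and 2 lower, where it called 952 of all genes. The median log2 difference in WT was -0.081, beside 0.0023 over all genes. Trpc4 was sparse, with 1, 2 and 1 counts in KO E2, 36, 20 and 1 in KO Plb, 32, 32 and 45 in WT E2, and 9 and 1 in WT Plb. It was the 1 member of the list called for KO against WT under estradiol (fitted log2 -4.33, adjusted p = 0.0187). That call held in 6 of 10 alternatives. With estradiol in WT it was higher without overlap, as 13.2% of all genes were (log2 2.37, unadjusted p = 0.0312, adjusted p = 0.287). In KO the difference was -3.46 (adjusted p = 0.118). The WT effect minus the KO effect was 5.83 (adjusted p = 0.0799), where DESeq2 called 1 of the 11 higher. These sizes depend on the prior count.

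Of 18 voltage-gated calcium channel genes 16 were tested, and 1 fell with estradiol in WT (4 unadjusted, median log2 difference -0.23), where 1.55% and 14% of all genes were called and under 0.05 unadjusted. Cacna2d3, an auxiliary subunit that carries the channel to the membrane, measured 2.17, 2.39 and 2.76 CPM in WT E2, against 6.46 and 5.72 CPM in WT Plb. All 6 KO libraries, at 5.82 to 7.64 CPM, lay above the WT E2 range. In WT it fell with estradiol (log2 -1.32, SE 0.19, adjusted p = 0.00348), and its WT effect minus its KO effect was -1.19 (adjusted p = 0.0446). That difference held in 6 of 15 alternatives. KO against WT under estradiol called 3 of the 16 higher and 1 lower, where 11.5% of all genes were called. Besides Cacna2d3 (log2 1.38) these were Cacna1e, the R-type pore, and Cacna1h, a T-type pore, both higher, and Cacnb3, an auxiliary subunit, lower (log2 -0.38, adjusted p = 0.0489). The Cacnb3 call held in 5 of 10 alternatives. Cacna1e had 81 to 91 counts per library in KO E2 against 7 to 13 in WT E2 (log2 3.48, adjusted p = 0.00181). Cacna1h had 17 to 25 counts in KO E2 against 0 to 3 in WT E2 (adjusted p = 0.00301), too few for a stable size.

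Genes that act before and after calcium entry were also counted. All 16 genes of store-operated and receptor-operated calcium entry were tested, and edgeR called 0 with estradiol in WT and 0 in KO (2 unadjusted in each, where 14% and 16.5% of all genes were). DESeq2 called 1 lower in WT and 1 higher in KO, where it called 656 and 952 of all genes. The median log2 difference in WT was -0.062. Plcg2, a phospholipase C of immune cells, was called higher in KO E2 than in WT E2, at 43.8 to 60.6 CPM against 23.5 to 29.2 CPM (log2 0.90, adjusted p = 0.00220). In the same comparison, where 11.5% of all genes were called, all 10 B lineage markers were called higher. They summed to 157 to 283 CPM in KO E2 against 18.9 to 22.3 CPM in WT E2. Of 10 neutrophil markers 7 were called higher, summing to 1176 to 4277 CPM in KO E2 against 7.62 to 38.1 CPM in WT E2. Macrophage markers were called lower in 6 of 10, with sums that overlapped (930 to 1532 CPM in KO E2 against 1191 to 1489 CPM in WT E2). Osteoclast markers were called lower in 6 of 8, summing to 8031 to 9512 CPM against 12406 to 12879 CPM. The part of these cells in the Plcg2 level was not tested.

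Of 22 genes of calcineurin and calmodulin signalling, the pathway through which calcium entry by TRPC channels is known to reach NFAT transcription factors, 0 rose and 2 fell with estradiol in WT (4 unadjusted), where 1.55% of all genes were called and 14% had an unadjusted p under 0.05. Camk2a, a calmodulin-dependent kinase, measured 5.60, 5.93 and 5.69 CPM in WT E2, against 9.04 and 12.9 CPM in WT Plb (log2 -0.93, adjusted p = 0.0278, held in 5 of 9 alternatives). Without WT Plb 2 it was -0.66 (adjusted p = 0.153). It was higher in KO E2 than in WT E2 (log2 0.87, adjusted p = 0.00655). Camkk1, which activates other calmodulin kinases, fell in both genotypes, by 0.58 in WT (adjusted p = 0.0477, held in 4 of 9 alternatives) and by 0.50 in KO (adjusted p = 0.0431, held in 5 of 10). Of 13 tested genes of YAP and TAZ, transcriptional regulators that respond to stiffness and stretch, edgeR and DESeq2 called 0 in all 5 comparisons, with 0 to 2 at an unadjusted p under 0.05 in edgeR. The medians of the calcineurin list and of the YAP and TAZ list for estradiol in WT were -0.026 and -0.067, beside 0.0023 over all genes.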

How the data were processed

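Poly-A RNA of 11 samples was sequenced. The submitters' processing notes name bcl2fastq 2.17, TopHat and the build mm9. For the counting program, its annotation and its strand setting, the sources used here give nothing. The authors deposited raw whole-number counts with a column for each sample, and 0 columns had no sample. The authors' 6 deposited comparison tables hold, per the file headers, a mean normalised signal, log2 fold changes with their errors, a test score and p-values, and only log2 values, an SE and adjusted p-values named as theirs are quoted.

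From the counts, edgeR 4.0.16 (R 4.3.3) filtered genes with filterByExpr (at least 10 counts in enough samples and 15 in total), scaled libraries by TMM and fitted 1 quasi-likelihood model to the 4 groups over all samples. Each SE is the log2 difference divided by the root of the F statistic. Every adjusted p is Benjamini-Hochberg adjusted over all 14531 genes, and a gene was called under 0.05. Levels are CPM ± SD where an SD is given. Depth ran from 15.7 to 25.5 M counts, and floors and intervals of counts cover counting error only, since reads were not tagged with molecular identifiers. The test was checked on simulated counts.

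Members and lists were chosen with earlier results of these data known. Named genes were the 7 members, Esr1, up to 4 called genes per list and comparison, the 10 genes most like Trpc6 and up to 3 for each other member, with a mean of at least 1 CPM and without predicted or small RNA genes. Other genes named with values (Trpm2, the markers and the overlapping genes) were chosen for their relation to these. Alternatives were RLE size factors, no filter, DESeq2 1.42.0, a replicate block, leaving out each library and, for likeness, Spearman's rho. The listed genes were put through them after the data were seen. Same-numbered KO E2 and KO Plb libraries deviated from their group means together (r = 0.290, 0.386 and 0.142). Pairs of other numbers over all groups ran from -0.33 to 0.20. The labels do not explain what the numbers stand for.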

Additional observations from a re-analysis of the deposited data

Results flagged for a closer look

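For 3 channel genes edgeR's test of the WT effect of estradiol minus its KO effect passed. Kcnk2, the stretch-activated potassium channel, had a difference of 1.41 on the log2 scale (adjusted p = 0.00269), held in 15 of 15 alternatives. Asic3, the acid-sensing channel, had a difference of -1.54 (adjusted p = 0.0210), held in 10 of 15. Cacna2d3, the calcium channel subunit, had one of -1.19 (adjusted p = 0.0446), held in 6 of 15 and lost with the replicate block. For Trpc6 the same difference was 4.22, only a description because the gene is taken to have been chosen by its WT effect. It is not counted with these. In all 4 the WT E2 libraries stood apart from the 8 others, above them for Trpc6 and Kcnk2 and below them for Asic3 and Cacna2d3.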

How the results depend on the processing

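Of 140 values of the members under another scaling, filter, block or model, 138 kept their direction and their side of the threshold. The other 2 were Trpm7 with estradiol in WT, whose value of 0.0010 became -0.0054 with RLE size factors and -0.0056 in DESeq2. Of 231 values with 1 library left out, 212 kept theirs and 16 changed sign. The values that changed sign lay near 0. With estradiol in WT they ranged from -0.057 to 0.31 for Trpv4, -0.20 to 0.23 for Trpm7 and -0.0062 to 0.32 for Piezo1. In KO they ranged from -0.36 to 0.087 for Trpv4 and -0.31 to 0.0044 for Piezo2. The difference between the estradiol effects ranged from -0.28 to 0.071 for Trpc1 and -0.12 to 0.33 for Trpm7. KO against WT ranged from -0.30 to 0.070 for Trpv4 under placebo, and under estradiol from -0.12 to 0.043 for Trpv2 and -0.31 to 0.010 for Piezo1. Trpc6 in KO against WT under estradiol ranged from -5.02 to -4.51. The number of genes called moved more than the members did. With estradiol in WT it was 225, in DESeq2 656, and 113 to 280 with a library left out. In KO it was 396, in DESeq2 952, and 105 to 505. For the difference between the effects it was 167, in DESeq2 561, and 68 to 270. For KO against WT under placebo it was 1, in DESeq2 36, and 1 to 50, and under estradiol 1667, and 867 to 1368. With the replicate number as a block, 629 genes were called in KO, 301 for the difference between the effects and 17 for KO against WT under placebo, and 0 of the members tested were called in any comparison. Under that block, the interaction of Cacna2d3 and the WT fall of Camkk1 lost their calls. By the correlation of deviations from group means, KO pairs of the same number ran from 0.142 to 0.386. All pairs of the same number ran from -0.20 to 0.39 (median 0.098), lowest for WT Plb with WT E2 (-0.20 and -0.16). Pairs of other numbers ran from -0.33 to 0.20 (median -0.047), so the ranges overlapped. The 2 WT Plb libraries deviate from their mean by equal and opposite amounts, so that 0.20 mirrors the -0.20 above. Subtracting group means ties the 2 kinds of pair together, so the overlap cannot decide what the numbers stand for. Of 11 libraries, 7 were most like one of their own number, and the block changed no other call named here. The cause of these changes was not tested. At 29 to 71 counts per library, the level of Trpc6 in KO E2 carries more counting error than its 1418 to 1583 counts in WT E2, and the WT Plb group rests on 2 libraries.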
